A study of Mus musculus with 36 samples.

Results

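The EBF family (early B cell factor, also called COE) comprised 4 of the 55359 genes in the deposited table: Ebf1, Ebf2, Ebf3 and Ebf4. The members were taken by gene symbol, with earlier results of these data known, and all 4 were found. They were read in 36 single neurons of the mouse superior colliculus and its neighbourhood. Each neuron belonged to 1 of 18 clones, and each clone was represented by 2 cells that descended from a single radial glia progenitor labelled at E12.

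Labelling used MADM (mosaic analysis with double markers), in which Cre recombinase drives an exchange between homologous chromosomes that rebuilds a split marker gene, so that the daughters of 1 dividing cell become visible. All mice carried the M11GTTG cassettes, and the genotypes were M11GTTG-Fz10-CreER (11 clones, 22 cells) and M11GTTG-Sox2-CreER (7 clones, 14 cells). CreER is a tamoxifen-dependent recombinase, and the transgenes are named for the progenitor genes Fz10 and Sox2, so that only progenitors with the active driver could found a clone. By tissue label, 22 cells came from sSC, 12 from dSC and 2 from PAG, the usual abbreviations for the superficial and the deep superior colliculus and the periaqueductal grey, which the labels do not spell out. The groups were sSC Fz10-CreER with 15 cells, sSC Sox2-CreER with 7, dSC Fz10-CreER with 7, dSC Sox2-CreER with 5 and PAG Sox2-CreER with 2. The mice were of mixed C57/Bl6, FVB and CD1 background and both sexes. The age of each animal at collection and the animal that each clone came from are not given in the labels, so p-values measure the spread between clones, some of which may share an animal.

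EBF proteins are transcription factors that bind DNA as dimers through a domain of their own kind, which holds a zinc-coordinating knuckle, followed by an immunoglobulin-like fold and a helix-loop-helix dimerisation region. Ebf1 is best known for commitment to the B lymphocyte lineage, Ebf2 for brown fat cells and for migration of neurons, and Ebf3 for neuronal differentiation and for a human neurodevelopmental syndrome. Ebf4 is the least studied member and is known from olfactory neurons. In the developing nervous system EBF genes are typically switched on as precursors leave the cell cycle, downstream of proneural bHLH factors.

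By the GENCODE M21 annotation of the GRCm38 build, which is not the GRCm39 build of the authors' alignment, the 4 genes lie on separate chromosomes. Ebf1 (ENSMUSG00000057098) occupies chr11:44617317-45008091 on the plus strand and spans 390775 bases. Ebf2 (ENSMUSG00000022053) occupies chr14:67233292-67430918 on the plus strand and spans 197627 bases. Ebf3 (ENSMUSG00000010476) occupies chr7:137193673-137314445 on the minus strand and spans 120773 bases. Ebf4 (ENSMUSG00000053552) occupies chr2:130295169-130370481 on the plus strand and is the shortest at 75313 bases. Most of each gene is intron, which matters here because the deposited values count exons and introns together.

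The stretch of coding sequence that encodes the zinc knuckle shows how closely the members resemble each other, and is given for all 4, since the readings below depend on telling them apart. The sequences are the coding strand of the GENCODE M21 transcripts, 42 bases each, with capitals at the bases that differ from Ebf1.
Ebf1: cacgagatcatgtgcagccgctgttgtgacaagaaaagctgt
Ebf2: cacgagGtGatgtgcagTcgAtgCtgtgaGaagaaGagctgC
Ebf3: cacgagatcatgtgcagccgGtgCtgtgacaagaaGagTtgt
Ebf4: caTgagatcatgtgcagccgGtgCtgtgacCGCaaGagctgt

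Ebf3 differed from Ebf1 at 4 of these bases and encoded the same residues. Ebf4 differed at 7 and Ebf2 at 8, both with a change of residue. Over the whole aligned coding sequence, Ebf1 and Ebf3 were the most alike pair, with 79.5% identical bases, and Ebf2 and Ebf4 the least alike, with 70.2%. The longest run of identical bases in any of the 6 pairs was 27, between Ebf3 and Ebf4, and no window of 50 bases was shared by any pair. Reads at least that long and without errors therefore could not match the coding sequence of 2 members equally well. Read length and the treatment of multiply mapped reads are not stated in the sources used.

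The RefSeq promoter table for GRCm38.p6 held 2 start sites of Ebf1 and 1 each of Ebf3 and Ebf4. These windows, 250 bases before to 50 after the start, were searched for CCCNNGGG, the palindromic core of the EBF binding site, which reads the same on both strands. The core was present once, in the Ebf3 window, 21 bases before the start, and 13.7% of all 32851 windows of 300 bases held it. The 250 bases before the Ebf3 start, on the minus strand of chromosome 7 (window chr7:137314396-137314695), are given to show where the match lies, with the match in capitals.
Ebf3: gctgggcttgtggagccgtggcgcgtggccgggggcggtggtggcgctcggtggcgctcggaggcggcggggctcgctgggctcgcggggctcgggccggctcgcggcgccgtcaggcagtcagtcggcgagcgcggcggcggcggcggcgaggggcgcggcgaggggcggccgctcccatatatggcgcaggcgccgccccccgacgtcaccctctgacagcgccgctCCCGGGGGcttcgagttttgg

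The Ebf3 window was 77% G and C, that of Ebf4 74.3%, and those of Ebf1 36.7% and 53%. A match to a short core in sequence of such composition is a description and not evidence of a bound site.

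Values are those the authors name TPM over exons plus introns, and each cell sums to 2000000. Depth in reads is unknown, so a gene listed at 0 may have been missed in capture. Genes with a value of 1 or more, counted here as detected, numbered 2661 to 16769 per cell, with a median of 12058. Snap25, a synaptic protein of neurons, ranged from 299.8 to 4008, and its lowest value was in the sSC cell of clone B, which also had the fewest genes. One other cell stood apart in a way that touches Ebf1. The dSC cell of clone U listed the B lymphocyte genes Cd79b at 1563, Cd79a at 539, Vpreb3 at 95.9 and Ms4a1 at 68.7, beside Snap25 at 2528 and Gad1 at 322. In the other 35 cells Cd79b was at most 31.9, with 2 cells at 1 or more, and Cd79a at most 9.54, with 1 cell at 1 or more. Its Ebf1 value was 59.0, with Ebf2 and Ebf3 both listed at 0, so the Ebf1 differences, correlations between siblings and correlations with Ebf2, Ebf3, Slc17a6 and Gad1 are also given without it. This cell was chosen after its values were seen.

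Ebf1 was the most widely read member. It reached a value of 1 or more in 25 of 36 cells, 10 or more in 19, and 50 or more in 8, with a median of 10.8 and a highest value of 124.9. Ebf4 reached 1 in 20 cells and 10 in 15, with a median of 2.52. Ebf3 reached 1 in 16 cells and 10 in 11, with a median of 0.729. Ebf2 was the most restricted, at 1 or more in 15 cells and at 10 or more in 8, with a median of 0.286. The ranges of all 4 members started at 0 and overlapped, and the order holds on the authors' length-normalised scale, whose treatment of intron length is not given.

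The highest Ebf1 values were 124.9 in an sSC cell of clone K, 110.6 in an sSC cell of clone R, 108.9 in the sSC cell of clone J, 102.0 in an sSC cell of clone M and 101.1 in the dSC cell of clone Q. Below these 5 came values of 85.2, 59.0, 51.0 and 49.9, and 8 cells were listed at 0. Ebf2 was led by the sSC cell of clone J at 151.7, with 65.6 in the sSC cell of clone U, 43.6 in clone M and 36.01 in clone O. Ebf3 was led by the sSC cell of clone U at 182.5, then the sSC cell of clone J at 82.7 and an sSC cell of clone T at 57.9. The sSC cells of clones J and U therefore held the 2 highest values of both Ebf2 and Ebf3. Ebf4 was led by an sSC cell of clone S at 174.4, far above the next value of 47.4 in the dSC cell of clone B.

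Cells rarely read the whole family. All 4 members were at 1 or more in 6 cells, 3 in 9 cells, 2 in 8 and 1 in 9, and 4 cells had no member at 1. Among the members, Ebf1 had the highest value in 13 cells, Ebf4 in 10, Ebf3 in 7 and Ebf2 in 3, and 3 cells listed all 4 at 0. Those 3 were the sSC cells of clones B, F and I, and all had Gad1 at 147 or more.

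**Figure D1:**
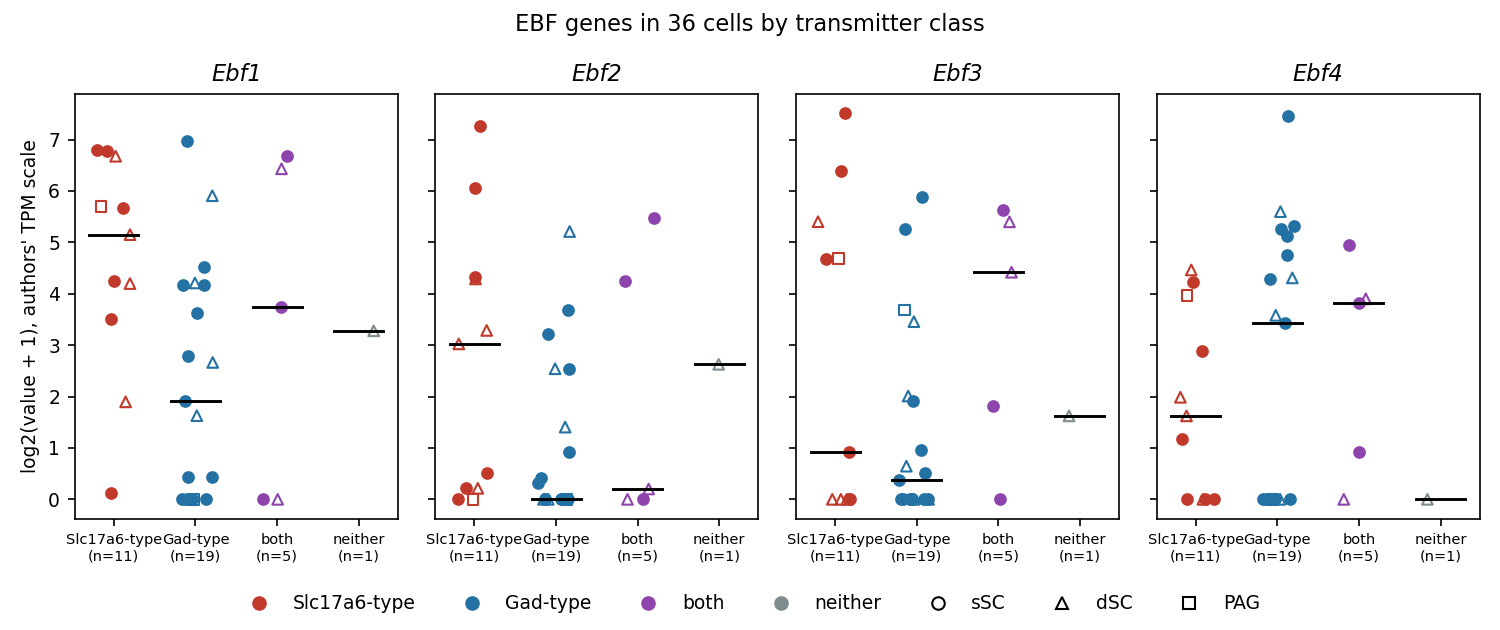
Level of each EBF gene in every cell as log2(value + 1) on the authors' scale, with cells placed by transmitter class, symbols by tissue (filled circles sSC, open triangles dSC, open squares PAG) and bars at the median. Ebf1 lies above 0 in all 11 Slc17a6-type cells, whereas 6 of the 19 Gad-type cells are at 0.

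Transmitter class was taken from 2 sets of genes. Slc17a6 encodes the vesicular glutamate transporter VGLUT2 of excitatory midbrain neurons, and Gad1 and Gad2 encode the enzymes that make GABA. A cell with Slc17a6 at 100 or more and both Gad1 and Gad2 below 100 was called Slc17a6-type. A cell with Gad1 or Gad2 at 100 or more and Slc17a6 below 100 was called Gad-type, and the other cells were set aside. This gave 11 Slc17a6-type cells from 9 clones, 19 Gad-type cells from 14 clones, 5 cells high in both and 1 high in neither. The classes rest on measured transmitter genes and not on the EBF genes.

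With tissues pooled, Ebf1, Ebf2 and Ebf3 were higher on average in the Slc17a6-type cells, and Ebf4 was not. No member's difference passed the adjustment over all genes. Over cells, mean log2(value + 1) of Ebf3 in Slc17a6-type and Gad-type cells was 3.25 and 1.15 in sSC, but 1.35 and 1.22 in dSC. Mean Ebf2 values were 39.5 and 2.02 in sSC. In dSC they were 8.64 and 8.49, with medians of 7.94 and 1.65. Mean log2(value + 1) of Ebf1 was 4.52 and 2.23 in sSC and 4.48 and 2.88 in dSC. This split by tissue was not tested. In Slc17a6-type cells Ebf1 ranged from 0.0821 through a median of 34.5 to 110.6, and 10 of 11 were at 1 or more. In Gad-type cells it ranged from 0 through a median of 2.77 to 124.9, and 11 of 19 were at 1 or more. No Slc17a6-type cell listed Ebf1 at 0 and 6 Gad-type cells did, but the ranges overlapped, and the single highest Ebf1 value belonged to a Gad-type cell of clone K that also had Slc17a6 at 95.4, just under the limit.

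Ebf2 ranged from 0 through a median of 7.13 to 151.7 in the Slc17a6-type cells and from 0 through a median of 0 to 36.01 in the Gad-type cells. It was at 10 or more in 4 of 11 and in 2 of 19. Ebf3 ranged from 0 through a median of 0.894 to 182.5 in the Slc17a6-type cells and from 0 through a median of 0.294 to 57.9 in the Gad-type cells. It was at 10 or more in 5 of 11 and in 3 of 19. Ebf4 went the other way in its upper range, with a median of 2.08 and a highest value of 21.0 in the Slc17a6-type cells and a median of 9.83 and a highest value of 174.4 in the Gad-type cells. Counting Ebf1, Ebf2 and Ebf3 jointly, at least 2 of the 3 were at 10 or more in 6 of 11 Slc17a6-type cells, in 3 of 19 Gad-type cells and in 3 of the 5 cells high in both.

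The 2 cells of a clone that fell in the same class were averaged on the log2(value + 1) scale, which understates the change of low genes, and classes were compared by limma over all 14356 genes that passed the filter on low values. Mean Ebf1 was 4.73 ± 2.13 (SD, n = 9 clones) in Slc17a6-type and 2.10 ± 2.03 (SD, n = 14 clones) in Gad-type cells. The difference was 2.63 on the log2 scale (SE 0.88, 95% interval 0.83 to 4.42). Its limma p was 0.00546 before and 0.877 after Benjamini-Hochberg adjustment, so the difference did not pass the threshold of 0.05. By p it stood at rank 89 of the genes tested.

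Mean Ebf2 was 2.63 ± 2.47 (SD, n = 9) against 1.01 ± 1.35 (SD, n = 14), a difference of 1.62 (SE 0.79, interval 0.02 to 3.22). Its limma p was 0.0473 unadjusted and 0.999 adjusted. Mean Ebf3 was 2.63 ± 3.03 (SD, n = 9) against 1.12 ± 1.39 (SD, n = 14), a difference of 1.51 (SE 0.88, interval -0.28 to 3.31). The limma p of Ebf3 was 0.0959 unadjusted and 0.999 adjusted. Mean Ebf4 was 2.15 ± 1.78 (SD, n = 9) against 2.50 ± 2.39 (SD, n = 14), a difference of -0.36 (SE 0.91, interval -2.21 to 1.498, limma adjusted p 0.999).

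None of the 4 members was called after adjustment, against 0.0697% of all genes tested. At an unadjusted p under 0.05 the members that passed were 2 of 4, Ebf1 and Ebf2, against 4.63% of all genes tested. That count was not stable. With clone as a block 0 of 4 passed, at a class limit of 200 only Ebf3 did, and Ebf2 also missed it with a pseudocount of 0.1, with no filter, at a class limit of 50 and without the clone U cell. The median difference of the 4 members was 1.57, beside 0.05 over all genes. The 10 genes called across the table included the class-defining Slc17a6, Gad1 and Gad2. With the class limit at 200 the Ebf1 difference was 1.79, that of Ebf2 0.52, and that of Ebf3 3.03, so the order of the 3 members depended on where the class was drawn. Without the clone U cell that listed B lymphocyte genes, the Ebf1 difference was 2.92 with a limma adjusted p of 0.535.

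**Figure D2:**
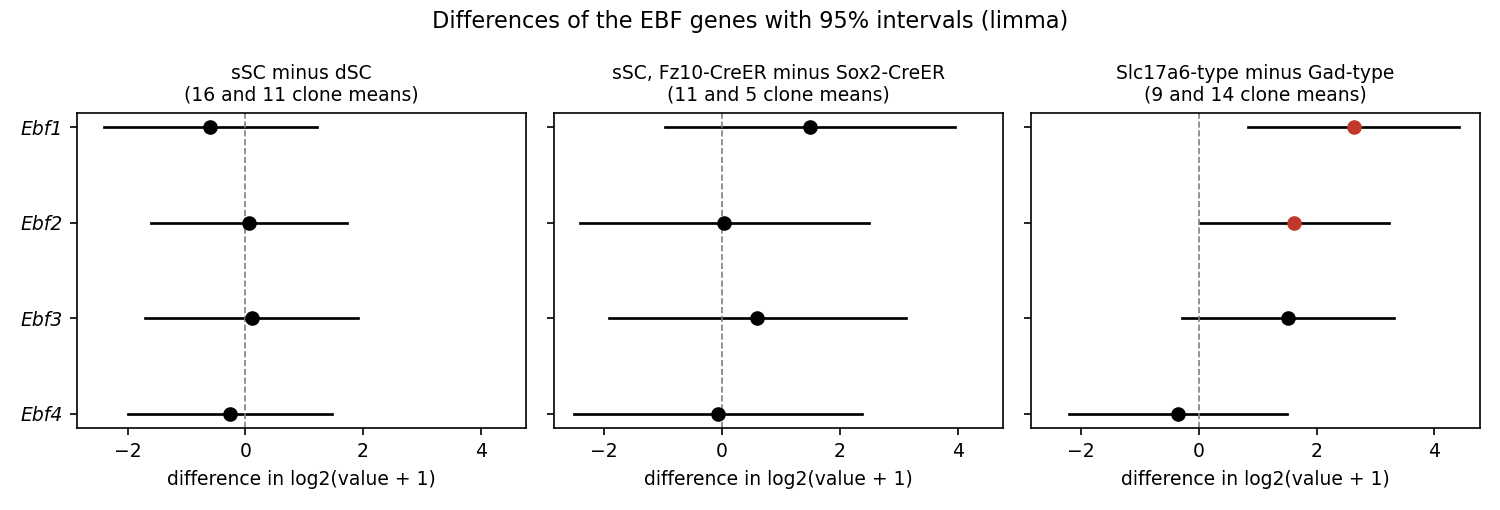
Difference of each EBF gene in 3 comparisons in log2(value + 1), with 95% intervals from limma, and red points where the interval does not include 0. Ebf1 (2.63) and Ebf2 (1.62) have intervals above 0 in the transmitter comparison, before adjustment over all genes, and all intervals of the tissue and driver comparisons include 0.

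The transmitter comparison was also possible inside 5 clones that held 1 cell of each class, which come from 1 animal each. In clones A and U the Slc17a6-type cell came from sSC and the Gad-type cell from dSC. In clone D they came from dSC and PAG. Only clones N and R had both cells in the same tissue, sSC. Class and tissue therefore cannot be told apart in clones A, D and U. In clone R, Ebf1 was 110.6 in the Slc17a6-type cell and 0.346 in its Gad-type sibling. In clone D the values were 34.5 and 0, and in clone A 18.04 and 2.09. In clone U they were 49.9 and 59.0, the second being the cell with B lymphocyte genes, and in clone N both cells were under 1. The Slc17a6-type cell was thus the higher in 3 of 5 clones and the lower in 2 for Ebf1.

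Ebf2 was higher in the Slc17a6-type sibling in 3 of 5 clones, most clearly in clone U (65.6 and 0) and clone D (18.5 and 0). Ebf3 was higher there in 3 of 5, most clearly in clone U (182.5 and 0) and clone R (24.5 and 0), and was lower in clone D (0 and 11.9). Both Ebf3 values were under 1 in clone A (0.894 and 0.564), counted as higher, and in clone N (0 and 0.294), counted as lower. In clone U the Ebf2 and Ebf3 values of 0 belong to the cell with B lymphocyte genes. With clone as a block, that is in a paired fit over these 5 clones, the differences were 2.72 for Ebf1, 1.87 for Ebf2, 1.68 for Ebf3 and -0.66 for Ebf4. The limma adjusted p-values in the block fit were 0.831, 0.865, 0.888 and 0.945, and this fit called 0 genes in the table as a whole, with 815 at an unadjusted p under 0.05.

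Across all 36 cells, without classes, Ebf1 followed Slc17a6 with a Spearman rho of 0.43 and Gad1 with -0.47. For Ebf2 these were 0.37 and -0.28, for Ebf3 0.45 and -0.30, and for Ebf4 -0.09 and 0.08. With Gad2 the rho was -0.38 for Ebf1, -0.24 for Ebf2, -0.15 for Ebf3 and 0.20 for Ebf4. Without the clone U cell the Ebf1 values were 0.50 with Slc17a6 and -0.50 with Gad1. Each library is 1 cell, and pairs of cells share a clone. The rho with the number of genes detected, which can differ with depth, was 0.21 for Ebf1, 0.41 for Ebf2, 0.18 for Ebf3 and 0.41 for Ebf4. These coefficients are descriptions of the 36 cells and carry no test.

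The members also went together to different degrees. Ebf1 and Ebf2 had the highest rho, 0.57 over 36 cells and 0.62 without the clone U cell, and of 15 cells with Ebf2 at 1 or more 14 also had Ebf1. Ebf1 and Ebf3 had a rho of 0.38, or 0.42 without the clone U cell, and Ebf2 and Ebf3 of 0.33. In sSC the rho of Ebf3 with Ebf1 and with Ebf2 was 0.62 and 0.54 over 22 cells, and in dSC -0.06 and 0.04 over 12 cells. The difference between tissues was not tested. Ebf4 stood apart, with a rho of 0.09 with Ebf1, 0.07 with Ebf2 and -0.11 with Ebf3.

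**Figure D3:**
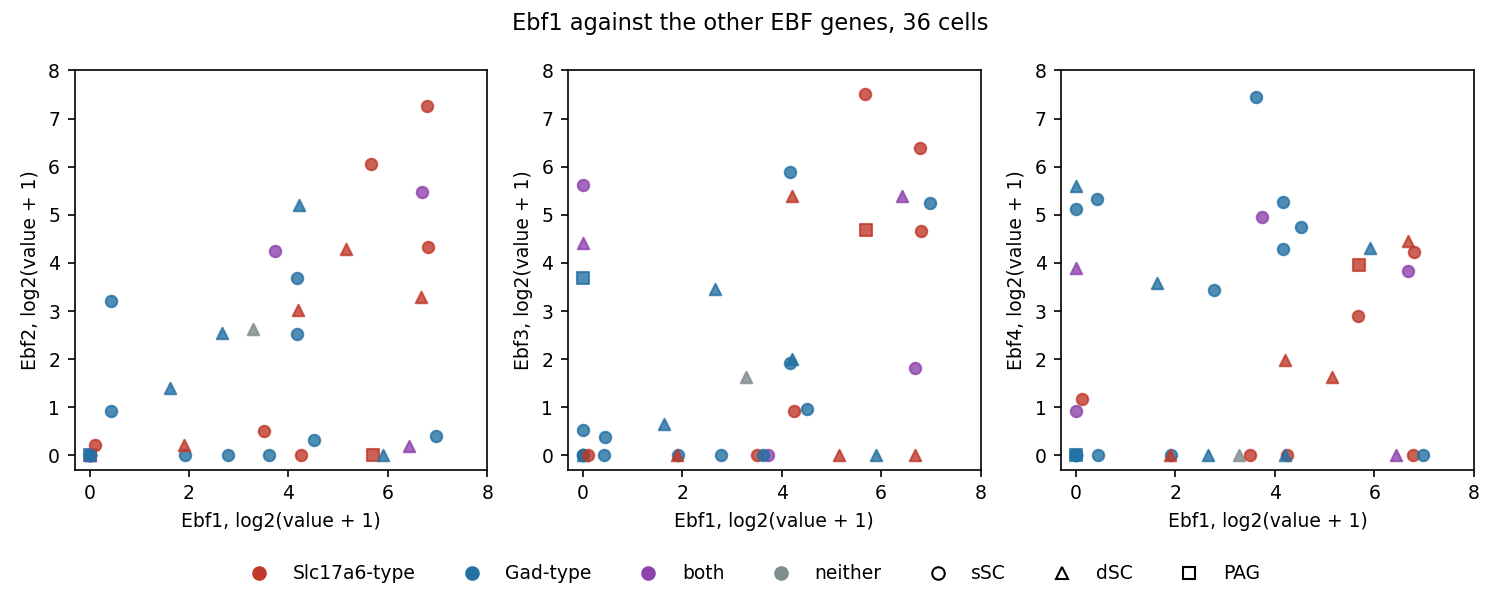
Ebf1 against Ebf2, Ebf3 and Ebf4 in 36 cells, both axes in log2(value + 1), colour by transmitter class and symbol by tissue. Of the 15 cells with Ebf2 at 1 or more, 14 also have Ebf1 at 1 or more, and Ebf4 is spread over the whole range of Ebf1.

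Between tissues the ranges of all 4 members overlapped, and no difference passed the test. For Ebf1, 14 of 22 sSC cells (range 0 to 124.9, median 10.8) and 10 of 12 dSC cells (0 to 101.1, median 13.03) reached 1. Ebf2 was at 1 or more in 8 of 22 and 7 of 12, with medians of 0.286 and 3.23, Ebf3 in 8 of 22 and 6 of 12, with medians of 0.364 and 1.32, and Ebf4 in 12 of 22 and 7 of 12, with medians of 3.83 and 2.52. Values of 50 or more for Ebf1 came from 4 of the 22 sSC and 3 of the 12 dSC cells. The highest Ebf2 and Ebf3 values were 151.7 and 182.5 in sSC and 36.01 and 41.2 in dSC. In the 2 PAG cells Ebf1 was 0 and 51.0, Ebf2 0 in both, Ebf3 11.9 and 24.7, and Ebf4 0 and 14.6.

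Mean log2 levels in sSC and dSC (n = 16 and 11 clones) were 2.91 ± 2.27 (SD) and 3.51 ± 2.41 (SD) for Ebf1, a difference of -0.59 (SE 0.89, interval -2.40 to 1.21), which was -0.35 without the clone U cell. The differences were 0.07 (SE 0.82, interval -1.60 to 1.74) for Ebf2, 0.11 (SE 0.89, interval -1.70 to 1.92) for Ebf3 and -0.26 (SE 0.86, interval -1.99 to 1.48) for Ebf4. The limma adjusted p-values lay between 0.979 and 0.994. None of the 4 members was called, where 0% of 14613 genes were, and none passed an unadjusted p under 0.05, where 5.16% of genes did. The median difference over all genes was -0.31, so that 32.7% of genes were higher in sSC. The signs of Ebf2, Ebf3 and Ebf4 turned under at least 1 other setting each. In the paired fit with clone as a block, over 9 clones with both tissues, the differences were -0.37, 0.81, -0.30 and -1.39 for Ebf1 to Ebf4, with limma adjusted p-values of 0.919, 0.779, 0.944 and 0.646.

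The driver was compared inside sSC alone, where 11 Fz10-CreER clones and 5 Sox2-CreER clones had cells. For Ebf1, 11 of 15 cells of the Fz10-CreER clones (range 0 to 124.9, median 11.3) and 3 of 7 cells of the Sox2-CreER clones (0 to 102.0, median 0.356) reached 1. The difference of clone means was 1.49 (SE 1.21, interval -0.97 to 3.96). For Ebf2 it was 0.04 (SE 1.203), for Ebf3 0.60 (SE 1.24) and for Ebf4 -0.07 (SE 1.198). All 4 limma adjusted p-values rounded to 1. None of the members was called, as was true of 0% of 14320 genes, and none passed an unadjusted p under 0.05, where 4.1% of genes did. With the number of genes detected as a covariate the Ebf1 difference was 2.27 (interval 0.05 to 4.49), so that 1 of 4 passed an unadjusted p under 0.05. Leaving out 1 Sox2-CreER clone at a time moved the Ebf1 difference between 1.02 (without clone F or H) and 2.38 (without clone M), and that of Ebf3 between 0.22 (without F or Q) and 1.62 (without H). Over all genes the median difference was -0.38. In dSC, the 5 Sox2-CreER cells, from 4 clones, had Ebf2 values of 0, 4.82, 8.75, 18.5 and 36.01, of which 4.82 and 36.01 belong to the siblings of clone O, and the 7 Fz10-CreER cells ranged from 0 through a median of 0.160 to 7.13. Over dSC cells, mean log2(value + 1) of Ebf2 was 1.07 in Fz10-CreER and 3.06 in Sox2-CreER cells. In the same order it was 3.33 and 3.74 for Ebf1, 1.87 and 1.98 for Ebf3 and 2.21 and 2.00 for Ebf4. None of these dSC contrasts was tested.

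The siblings of a clone did not always read the same EBF genes. The counts below were not compared with those of unrelated cells. Ebf1 was at 1 or more in both cells of 10 of 18 clones, in 1 cell of 5 and in neither cell of 3. Ebf4 was read in both cells of 6 clones, in 1 cell of 8 and in neither of 4. Ebf2 was read in both cells of 5 clones and in 1 cell of 5, and Ebf3 in both cells of 4 and in 1 cell of 8. The largest gaps were in clone I for Ebf1 (85.2 in dSC and 0 in sSC) and in clone U for Ebf3 (182.5 in sSC and 0 in dSC).

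Clones T, S, Q and R were the ones in which Ebf4 was high in both cells. In clone T the values were 33.95 and 37.3, in clone S 25.9 and 174.4, in clone Q 30.03 and 21.0, and in clone R 39.0 and 17.7. The pair in clone M (13.2 and 18.5) was also above 10 on both sides. The other 13 clones had at least 1 cell under 10.

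**Figure D4:**
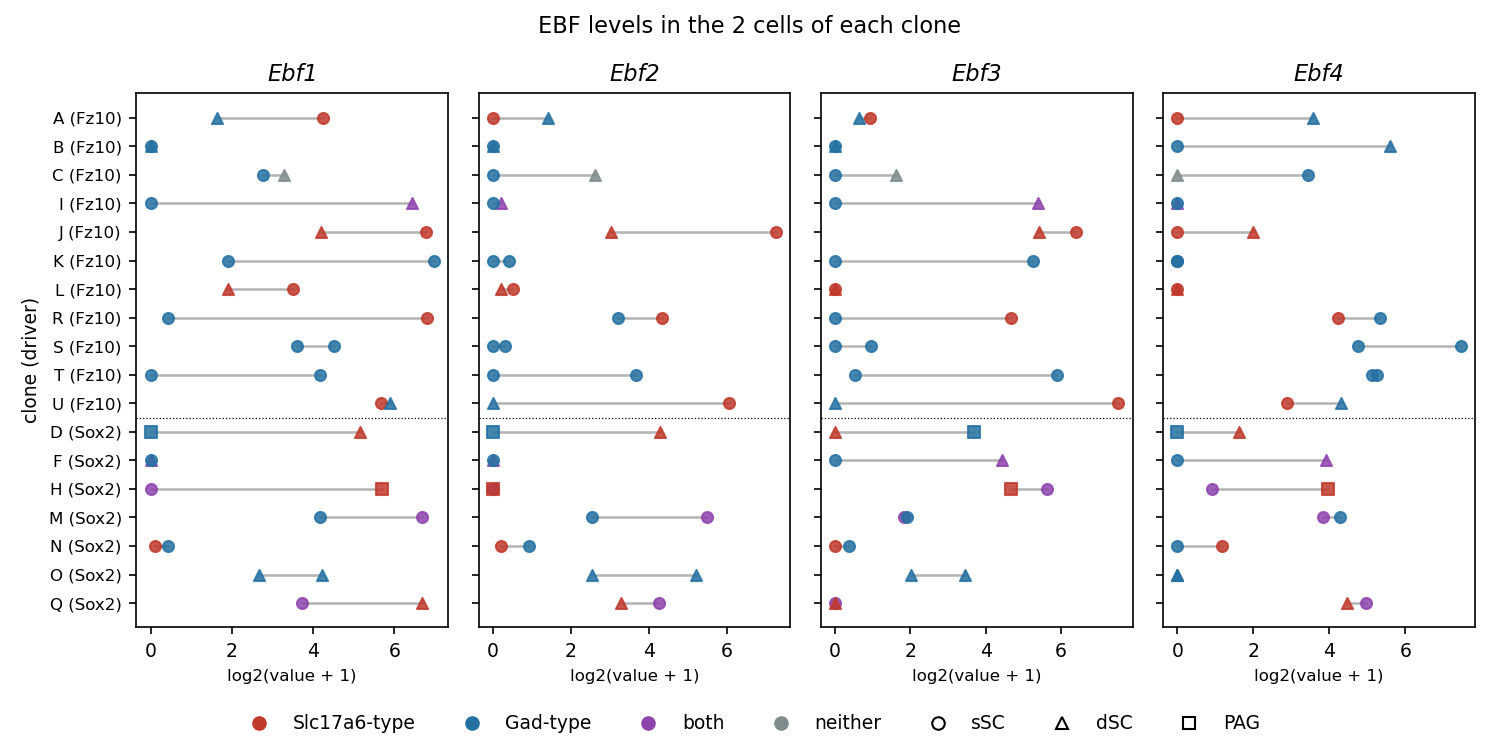
Level of each EBF gene in the 2 cells of each clone, in log2(value + 1), joined by a line, with colour by transmitter class, symbol by tissue and the Fz10-CreER clones above the dotted line. The longest lines for Ebf1 are in clones I, R and H, and for Ebf4 both points lie to the right in clones Q, R, S and T.

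Over the 16 clones with both cells in sSC or dSC, the correlation between siblings after removal of tissue means was 0.45 for Ebf4, 0.36 for Ebf2, 0.15 for Ebf1 and -0.07 for Ebf3. The limma test of the clone term gave Ebf4 an unadjusted p of 0.00726, at rank 216 of 15132 genes, and an adjusted p of 0.478. None of the 4 members was called, beside 0.0198% of all genes. Ebf4 alone, 1 of 4, passed an unadjusted p under 0.05, beside 7.8% of all genes. This test needs both cells of a clone, so leaving out a cell removed its whole clone. Without clone U, left out for its dSC cell, Ebf2 passed as well, with a correlation of 0.52, and that of Ebf1 was 0.08. Without clone B, left out for its sSC cell, the Ebf1 correlation was 0.04. The adjusted p-values of Ebf1, Ebf2 and Ebf3 by limma were 0.737, 0.643 and 0.824.

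Several genes on the opposite strand share the EBF loci, and reads of opposite strands could not be told apart if the counting ignored strand, which the sources used here do not say. By GENCODE M21, Ebf2 is overlapped by 5 genes on the other strand, Ebf3 by 2, Ebf1 by 1 and Ebf4 by none. Gm10860, which shares 3251 of its 9504 bases with Ebf2, was at 1 or more in 12 cells and reached 649.5, above the Ebf2 value in 11 of them. In 10 of the 12 cells Ebf2 was also at 1 or more, and rho between the pair was 0.66 over 36 cells. In the sSC cell of clone U, Gm10860 was 649.5 and Ebf2 65.6. In the sSC cell of clone J, which had the highest Ebf2 value of 151.7, Gm10860 was listed at 0, and 4930438E09Rik, another gene on the opposite strand that lies wholly inside Ebf2, was at 17.8. 4930438E09Rik was above 0 in 6 cells, at 1 or more in 5, and highest at 21.4 in the dSC cell of clone D, where Ebf2 was 18.5. Gm12158, which lies wholly inside Ebf1, was at 1 or more in 6 cells, up to 79.1, and in all 6 Ebf1 was at 1 or more. The share of shared reads in these Ebf1 and Ebf2 values was not tested.

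**Figure D5:**
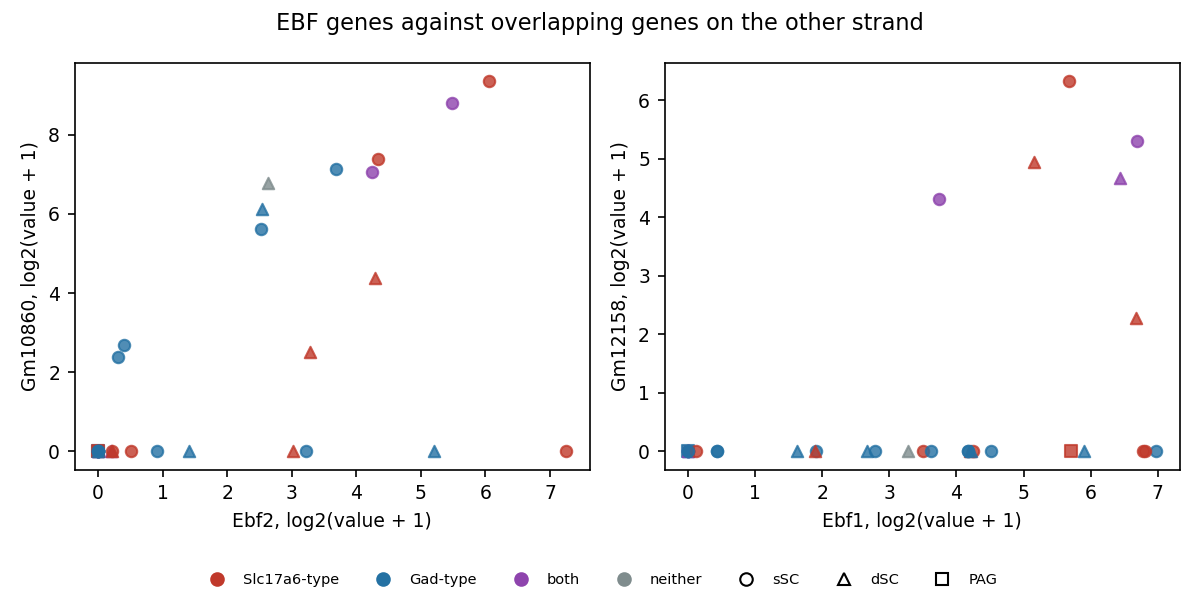
Ebf2 against Gm10860 and Ebf1 against Gm12158 in 36 cells, in log2(value + 1), for the overlapping genes on the opposite strand. Gm10860 is at 1 or more in 12 cells, 10 of them with Ebf2 at 1 or more, whereas the cell with the highest Ebf2 value has Gm10860 at 0.

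Among the 14902 genes that reached 1 in 25% of cells, the 5 whose levels ran most like Ebf1 over the 36 cells were Nrn1 (rho 0.69), a membrane-anchored neurite growth factor, Cep170b (0.66), Sdk2 (0.63), a synaptic adhesion protein, Prr36 (0.63) and Kcnab2 (0.61), a potassium channel subunit. Ebf2 came at rank 17 in this order, Slc17a6 at 277 and Ebf3 at 636. Ebf2 was most like Sgms2 (rho 0.66), a sphingomyelin synthase, the overlapping Gm10860 (0.66), Pltp (0.66), a phospholipid transfer protein, Grb14 (0.65) and Nfic (0.65), a nuclear factor I protein. Ebf1 stood at rank 37 for Ebf2. Ebf3 was most like Gmfb, Zfp28, Ttc9, Gm16277 and A830011K09Rik, all with a rho between 0.59 and 0.60. Ebf4 was most like Prr16 (0.70), Wdr5 (0.70), a scaffold of histone methyltransferase complexes, Iffo2 (0.67), Gm43111 (0.67) and Plxna3 (0.66), a semaphorin receptor, and the other EBF genes came no nearer than rank 8905. These rankings take the highest of many coefficients over 36 cells and are descriptions.

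Genes that work with or around EBF were read in the transmitter comparison from lists of known relations. The partners Zfp423 and Zfp521, zinc finger proteins that bind EBF1, and Cnot3 were all tested and all 3 were lower in Slc17a6-type cells without passing, with differences of -0.34 for Zfp423 and -0.27 for Zfp521. Of 10 proneural and neuronal bHLH genes 4 passed the filter, 1 higher and 3 lower and none called, and those with the largest differences were Neurod2 (1.57) and Neurod6 (-1.56). Neurog1 was listed at 0 in all cells. Of 4 olfactory EBF targets 2 were tested, Adcy3 (1.63, adjusted p 0.999 by limma), an adenylate cyclase, and Gnal (0.03), a G protein subunit, and neither was called.

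Of 10 B lineage targets of Ebf1 only Foxo1 passed the filter (difference 1.197, not called), and Vpreb1 and Igll1 were listed at 0 in every cell. Of 5 adipocyte genes linked with EBF, 2 were tested, with differences of -1.05 for Cidea and 0.55 for Pparg, and neither was called.

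Transcription factors of the excitatory and inhibitory lineages were read in the same way. Of 14 excitatory collicular factors 12 were tested, 11 higher and 1 lower in Slc17a6-type cells, with a median of 1.62 and none called. The largest differences were those of Pou4f2 (3.37, limma adjusted p 0.327) and Lhx9 (3.17, limma adjusted p 0.333). Of 17 inhibitory midbrain factors 9 were tested and all 9 were lower, with a median of -3.32, and 4 were called: Otx2 (-5.14), Sox14 (-4.68), Gata3 (-4.48) and Lhx1 (-3.59). The median of the 4 EBF members was 1.57, and that over all genes tested 0.05. Of all 14356 genes tested, 53.1% were higher in Slc17a6-type cells and 0.0697% were called. In the tissue and driver comparisons none of the genes in these lists was called.

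Markers of other cells were present in many libraries and are given beside the transmitter result. The 10 endothelial markers summed to between 9.52 and 1033 (median 247) in Slc17a6-type cells and between 0 and 339 (median 107) in Gad-type cells, and their mean log2 level had a rho of 0.42 with Ebf1 and 0.49 with Ebf2. Among them Itm2a had a median of 116 and was at 1 or more in 26 cells, Cldn5 in 12, while Cdh5 was at 1 or more in 3 cells and Emcn in 2. The 13 mural cell markers, of interest because pericytes express Ebf1, summed to between 0 and 741 (median 15.3) and between 0 and 130 (median 21.9), with a rho of 0.09 with Ebf1. Kcnj8 was listed at 0 in all cells, and Abcc9 and Higd1b were at 1 or more in 2 cells each. The 8 meningeal fibroblast markers had medians of 32.4 and 34.1, the 7 astrocyte markers 575 and 787, the 8 oligodendrocyte markers 2828 and 3394, and the 9 microglial markers 1338 and 1497, in Slc17a6-type and Gad-type cells. With Ebf2 and Ebf4, the rho was 0.48 and 0.48 for oligodendrocyte markers, 0.43 and 0.32 for astrocyte and 0.40 and 0.47 for meningeal fibroblast markers. It was 0.22 and 0.38 for mural markers, -0.03 and 0.09 for microglial markers and 0.27 and 0.35 for neuron markers. The markers that passed the filter and were tested were 2 endothelial, 4 mural, 4 meningeal fibroblast, 7 astrocyte, 8 oligodendrocyte and 8 microglial. None of them was called between the classes. In that order, 2, 1, 2, 3, 2 and 4 were higher in Slc17a6-type cells. The 2 endothelial markers had a median difference of 1.24. The part of such RNA in the EBF values was not tested.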

How the data were processed

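Each library was 1 neuron, and its polyA RNA was turned into cDNA libraries by Takara's SMART-Seq Single Cell PLUS chemistry, per the labels' protocols. Reads were aligned with STAR 2.7.9a to GRCm39 and handled in R 4.0.3, per the submitters' processing notes. For the counter, annotation, strand setting and formula, nothing is given in the sources used here. In the deposited table is a length-normalised signal that the authors name TPM over exons plus introns. Each cell sums to 2000000, so the values were treated as a signal, and read depth is unknown. Gene identifiers were paired with symbols for 52083 of 55359 genes.

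Values were taken as log2(value + 1). The cells of a clone in the same group were averaged. Genes that reached 1 in 25% of cells were tested with limma 3.58.1 in R 4.3.3, the p-values were adjusted by Benjamini-Hochberg, and the threshold was 0.05. The tissue, driver and transmitter fits were tested on simulated data, with cells drawn independently and large differences planted in genes of high mean level. That setting covers neither genes as low as the EBF members nor likeness between siblings. Tissue (sSC minus dSC), driver within sSC, transmitter class and clone were compared. Clones rather than cells were the replicates. The 2 cells of a clone come from 1 animal, which pairs them by design. The main fits did not use this pairing, and clones with cells in both groups entered both. Across genes, deviations from the tissue means correlated at -0.03 to 0.06 over the 9 clones with both tissues. That correlation does not measure the pairing of a single gene. With clone as a block over these 9 clones, 9.02% of genes had an unadjusted limma p under 0.05 for tissue, against 5.16% in the main fit. Alternatives were pseudocounts of 0.1 and 10, no filter, quantile normalization, the number of genes detected as a covariate, clone as a block, class limits of 50 and 200, transmitter balance as a covariate, and cells or clones left out. The alternative without the clone U cell was chosen after seeing the data. The members and gene lists were chosen with earlier results of these data known.

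From each list, the members named were those with the largest 2 differences in the transmitter comparison, beside called genes, genes at 0 and defining markers. Genes of like pattern were the 5 with the highest rho. Promoters came from RefSeq (GRCm38.p6), with Ebf2 not analysed here, and coding sequences from GENCODE M21.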

Additional observations from a re-analysis of the deposited data

How the results depend on the processing

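No EBF member was called in any comparison under any alternative run. For Ebf1, Ebf2 and Ebf3 the transmitter difference kept its direction under all 11 alternatives, with adjusted p-values of 0.535 to 1.00 for Ebf1. No filter and omission of the clone B sSC cell left these differences at 2.63, 1.62 and 1.51, and could not have turned them. Transmitter balance as a covariate gave a slope and not a class difference. Quantile normalization moved the median of all genes from -0.31 to -0.14 in the tissue and from -0.38 to -0.05 in the driver comparison. Several other differences turned sign under some settings, and the cause was not tested. With a pseudocount of 0.1 the tissue difference was -0.38 for Ebf2 and -0.068 for Ebf3, the driver difference of Ebf2 was -0.25, and the transmitter difference of Ebf4 was 0.10. Without the clone U dSC cell the tissue difference was -0.10 for Ebf2 and -0.075 for Ebf3. The sibling correlation of Ebf3 was 0.11 in that setting, which removed both cells of clone U from the clone test. With clone as a block the tissue difference of Ebf3 was -0.30. With genes detected as a covariate the tissue difference of Ebf4 was 0.31 and its driver difference 0.83. With a pseudocount of 10 the driver difference of Ebf4 was 0.085 and the sibling correlation of Ebf1 was -0.020. Without the clone B sSC cell the driver difference of Ebf4 was 0.14.

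Leaving out 1 Sox2-CreER clone at a time, the driver difference of Ebf2 ran from -0.40 (without clone F or H, and -0.26 without N) to 0.66, and that of Ebf4 from -0.59 to 0.65 (without Q, and 0.42 without M). These omissions called 0 to 5 genes in the whole table, 1 without clone F and 5 without clone H. Over all genes, the tissue comparison called 1 gene with a pseudocount of 10, with quantile normalization and with the block, and the driver comparison 1 with a pseudocount of 10. The transmitter comparison called 0 genes with the block and 16 with transmitter balance as a covariate. The clone term called 6 genes with a pseudocount of 0.1 and 90 with no filter. Ebf2 was at 10 or more in 8 cells against 15 at 1 or more. Unknown depth limits every statement on a gene listed at 0.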
